A study of Mus musculus with 6 samples.

Results

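Collagen genes were described in RNA sequencing libraries from the apical portion of mouse first mandibular molars at postnatal day 7.5. A gene counted as a collagen gene when its symbol was Col followed by a number, a and a number, which took 43 of the 25899 symbols in the deposited table. By protein type these were 11 fibrillar genes, 6 basement membrane (type IV) genes, 6 type VI genes, 9 FACIT genes (fibril-associated collagens with interrupted triple helices), 4 transmembrane genes and 7 others. The choice used names only and no measured value. The study compared 3 mutant libraries, genotype Gli1-CreER;Bmpr1afl/fl, with 3 libraries of littermate controls, genotype Bmpr1afl/fl, on a mixed C57Bl6/129S6/SvEvTac background. Both groups therefore carried the loxP-flanked Bmpr1a alleles, and the mutants alone carried the Gli1-CreER driver. Controls 1 and 2 and mutants 1 and 2 were born in litter 1, whereas control 3 and mutant 3 came from litter 2. The Bmpr1a product is a type I receptor through which cells sense bone morphogenetic proteins (BMPs). CreER, a recombinase that needs tamoxifen, is made here in Gli1-expressing cells, and a deletion it makes passes to their descendants. Cells outside that lineage keep the receptor, and the labels name no sorting of cells. When tamoxifen was given, and whether controls had it too, is not in the labels used here. They call the tissue both dental pulp and tooth germ.

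Collagens are secreted or membrane proteins in which chains built of repeated glycine-led triplets wind into a triple helix. Fibrillar collagens form the load-bearing fibrils of dentin, bone and ligament, and type I is the main organic component of dentin and bone. Type IV forms the networks of basement membranes, type VI forms beaded microfilaments near cells, FACITs sit on fibril surfaces, and transmembrane collagens such as type XVII anchor epithelial cells. In the developing molar, odontoblasts lay down type I collagen as predentin, while the enamel epithelium rests on a basement membrane.

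The libraries held between 15916048 and 20609427 reads on genes, and a single read was worth between 0.0329 and 0.0419 RPM (reads scaled to a common total per library). Bmpr1a, the targeted gene, had 121, 139 and 149.5 RPM in controls 1, 2 and 3 and 107.6, 120.2 and 111 RPM in mutants 1, 2 and 3. All mutants lay below all controls, by -0.27 (SE 0.14) on the log2(RPM + 1) scale (unadjusted p 0.091; adjusted p 1.00, limma with Benjamini-Hochberg). Reads from exons outside the floxed part count towards these totals. The odontoblast gene Dspp ranged from 113 RPM in mutant 3 to 6872 RPM in mutant 1, and the library of mutant 3 stood lowest for Phex also, at 18.2 RPM against 113 to 725 RPM elsewhere. Genes of the enamel epithelium were present in every library, with a summed level of 7 genes between 2143 and 36754 RPM in the controls and between 4454 and 47440 RPM in mutants. Other summed levels in controls and mutants were 1391 to 5830.5 and 712 to 7927 RPM for 6 dental mesenchyme and odontoblast genes, and 1026 to 2064 and 524 to 1978 RPM for 7 osteoblast genes. Of these 7, 5 had a lower mean RPM in mutants, among them Mepe, at 0.424 RPM in control 3 and 0 elsewhere. Bglap and Bglap2 had a higher mean RPM in mutants but log2(RPM + 1) changes of -0.27 and -0.20. Ibsp did not overlap, with means of 85.1 and 26.4 RPM (-1.41, unadjusted p 0.0195), and Spp1 overlapped (-3.05, unadjusted p 0.0312; limma adjusted p 1.00 for both). For 5 endothelial genes they were 243 to 308 and 200.4 to 296 RPM, and for 5 cartilage genes 72.7 to 127 and 53.0 to 136 RPM, with Matn1 at or under 3 reads in every library. Lists of ligament (30.5 to 57.3 RPM), Schwann cell (19.2 to 27.8 RPM), macrophage and osteoclast (237 to 430.3 RPM) and erythroid genes (130.4 to 1417 RPM) are given over all 6 libraries. The erythroid sum was 1417 RPM in control 3 and between 130.4 and 428 RPM elsewhere. In bulk tissue, fewer cells of a type and less RNA per cell cannot be told apart.

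Collagen genes took 5.37%, 6.12% and 4.78% of the reads on genes in controls 1, 2 and 3 and 7.74%, 4.97% and 2.85% in mutants 1, 2 and 3. Mutant 1 was the highest and mutant 3 the lowest, so the groups overlapped. Col1a1 and Col1a2, the chains of type I collagen, held 41.9% of the collagen reads in mutant 3 and between 64.3% and 82.5% in the other 5 libraries. Levels of different genes are compared here per kilobase of transcript. Col1a1 was the highest, with a mean of 2851 RPM per kb over the 6 libraries (range 821 to 4877). Col1a2 followed at 1594 (578 to 2616) and Col3a1 at 623 (422 to 918). Col9a2, at 170.0 RPM per kb (78.7 to 294), came next, and its range lay wholly below that of Col3a1. Every other pair of neighbours in this order overlapped in range. The highest member of each remaining type was Col6a2 for type VI (88.2 RPM per kb), Col4a1 for type IV (76.8), Col23a1 for the transmembrane genes (62.6) and Col18a1 for the others (44.96). A mean of at least 1 RPM, the level needed for testing, was reached by 36 of the 43 genes. Just inside was Col4a4 at 1.28 RPM and just outside Col19a1 at 0.889 RPM. The 7 genes outside were Col19a1, Col4a3, Col6a4, Col6a5, Col6a6, Col10a1 and Col20a1, between 0.279 and 0.889 RPM.

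Many coding exons of these genes shared a length. In the GENCODE annotation of mouse build GRCm38, 469 of the 1987 coding exons of the 43 genes (23.6%) are exactly 54 bases long, against 0.441% of the coding exons of all other protein-coding genes. A 54-base exon encodes a whole number of glycine-led triplets. Among fibrillar genes the share is 47.0%, among FACIT genes 25.3%, among transmembrane genes 8.92%, in type VI 7.91%, among the others 5.02% and in type IV 4.05%. Col8a1, Col8a2 and Col10a1 have 0 such exons. Col1a1, at chromosome 11, 94936224 to 94953042, has 21 such exons among 51 coding exons, whereas Col6a3, at chromosome 1, 90766860 to 90843952, has 3 among 40.

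No collagen gene passed the test between genotypes. By limma with Benjamini-Hochberg adjustment over 14444 genes, 0 of the 36 tested were under 0.05, as for all genes (0%), and every adjusted p rounded to 1.00. Without adjustment 2 collagen genes had p under 0.05, Col6a3 and Col5a1, both lower in mutants, or 5.56% of those tested against 1.05% of all genes; in that direction alone the share of all genes was 0.692%. The groups did not overlap for the same 2 genes, against 2.64% of all genes in either direction and 1.67% in that direction. Col6a4, under the level for testing and named after its values were seen, was also separate, at 0.823, 0.315 and 0.565 RPM in the controls and 0.249, 0.299 and 0.251 RPM in mutants. In the fit with the counts recovered as whole reads (limma voom), and under median-of-ratios scaling, Col6a3 alone was under an unadjusted p of 0.05. With litter as a block 4 of 36 members were, beside 292 of all 14444 genes. In litter 1 alone 9 of 37 were, beside 316 of 14431 genes, and none passed adjustment in either fit. Each change is the mutant mean less the control mean of log2(RPM + 1). They ran from -1.07 for Col9a3 to 0.84 for Col4a4, which reached the level for testing only through mutant 1. The next highest was 0.64, for Col14a1. The median was -0.18, beside -0.01 over all genes tested. The spread of the members' median between libraries of a group gave the median change a standard error of 0.21, larger than its size. Of the 36, 27 were lower in mutants (75.0%), where 54.4% of all tested genes were lower. That count was 21 of 36 without control 1 and 21 of 35 without mutant 1. All 11 fibrillar genes had a change below 0, as did 6 of 7 FACIT genes, 2 of 3 type VI, 2 of 5 type IV, 2 of 4 transmembrane and 4 of 6 other genes. The mean RPM of Col1a2 was nonetheless higher in mutants, at 8713 against 8333. Members share libraries and are not independent of each other, and in litter 1 alone Col1a1, Col1a2, Col5a2, Col11a1, Col11a2 and Col27a1 were higher in mutants. The labels do not say how many animals were pooled in a library, so p-values measure the spread between these samples.

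**Figure D1:**
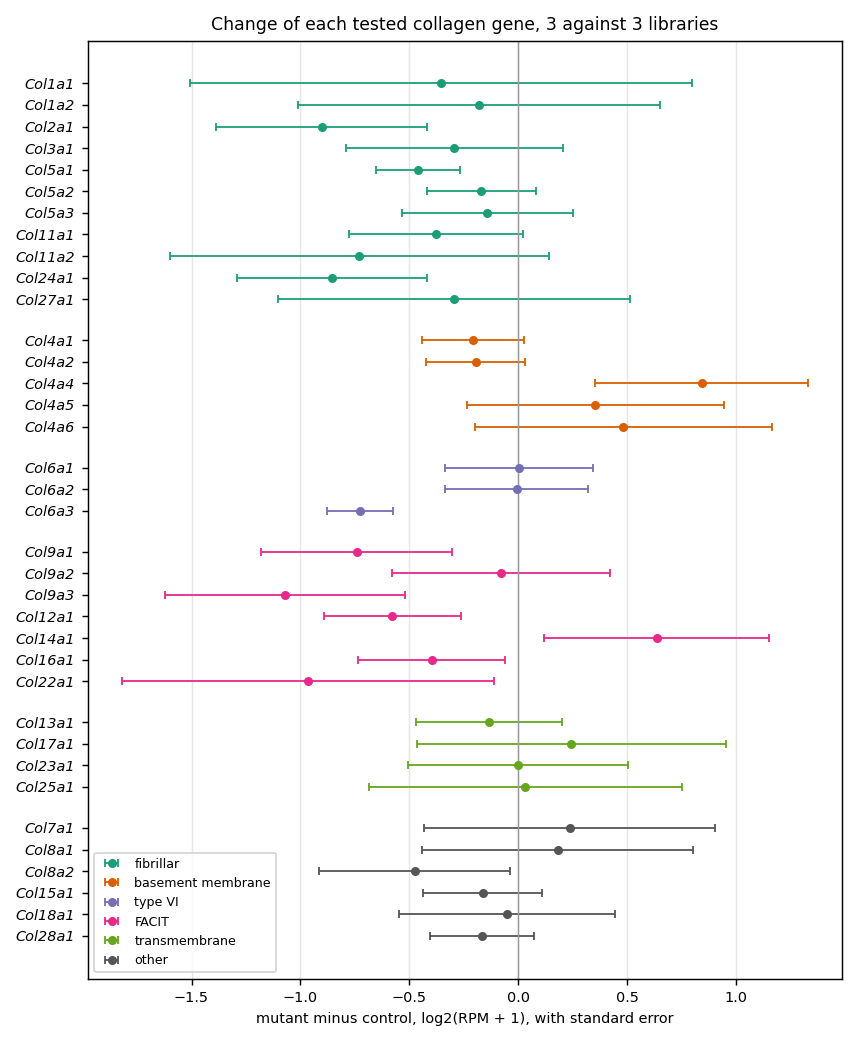
Change of each of the 36 tested collagen genes, as the mutant less the control mean of log2(RPM + 1) (points), with the standard error of the fit over 3 against 3 libraries (bars), by collagen type. Col6a3 and Col5a1 have the narrowest bars among genes below -0.4, and every fibrillar point lies below 0.

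Type VI collagen is a trimer of one chain each from Col6a1, Col6a2 and Col6a3. Col6a3, whose chain carries the longest globular ends of these, measured 225, 223 and 212 RPM in controls 1, 2 and 3 and 113, 137 and 150.1 RPM in mutants 1, 2 and 3. The controls lay close together and all mutants were below all of them. The group values were 219.9 ± 7.25 and 133 ± 18.9 RPM (mean ± SD, n = 3 each, as throughout), a change of -0.73 (SE 0.15; limma, unadjusted p 0.00186, adjusted p 1.00). Litter 1 gave -0.85 and litter 2, with 1 library of each genotype and so no test of its own, -0.49. This was the second smallest unadjusted p of all 14444 genes, and it stayed under 0.05 in all 14 alternatives, with changes from -0.85 to -0.61.

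The partner chains had overlapping groups. Col6a1 was at 433, 287 and 189 RPM in the controls and 223, 272 and 389 RPM in mutants, and Col6a2 at 499.7, 316 and 240.2 RPM and 255, 317 and 461 RPM. Both were high in control 1 and mutant 3, low in control 3, and overlapped between groups. Their changes were 0.00 (SE 0.34, unadjusted p 0.993) for Col6a1 and -0.01 (SE 0.33, unadjusted p 0.98) for Col6a2, with the sign of the latter turned under median-of-ratios scaling and with voom. In litter 1 they were lower in mutants, at -0.51 and -0.48, as Col6a3 was, and in litter 2 higher, at 1.04 and 0.94. Per unit of transcript length, Col6a2 was between 1.14 and 1.32 times Col6a1 in every library. The per-length ratio of Col6a3 to Col6a1 was 0.237, 0.354 and 0.511 in controls and 0.230, 0.229 and 0.176 in mutants, so every mutant was below every control. On the log2 scale that ratio differed by -0.74 between groups, by -0.33 in litter 1 and by -1.54 in litter 2, and it was -0.46 without control 3. An exact two-sided permutation test over samples gave p = 0.1, the smallest that 3 against 3 allows, and 0.6 after Benjamini-Hochberg adjustment over the 6 chain ratios compared. Of the 6 dental mesenchyme and odontoblast genes, 3 had a lower mean RPM in mutants (Lhx6, Lhx8 and Dmp1) and 3 a higher one (Barx1, Dspp and Phex). On the log2(RPM + 1) scale used for the changes, Dspp (-0.71), Phex (-0.55) and Dmp1 (-0.87) were below 0 and Barx1 was at 0.00. Of the 6 genes, Lhx8 alone was without overlap (-0.46, limma, unadjusted p 0.018, adjusted p 1.00). Lhx6 overlapped (-0.54, limma, unadjusted p 0.0431), and Barx1 had means of 410.2 and 414 RPM. Among the osteoblast genes, Ibsp was lower in all mutants than in all controls, with the values given above. Spp1 overlapped, with control 1 at 4.54 RPM below mutants 1 and 3 at 4.62 and 5.20 RPM. Bglap and Bglap2 had a higher mean RPM in mutants, at 540 against 482 and 331 against 297, and 5 of the 7 genes had a lower one. The part of these genes in the Col6a3 and Col5a1 differences was not tested.

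**Figure D2:**
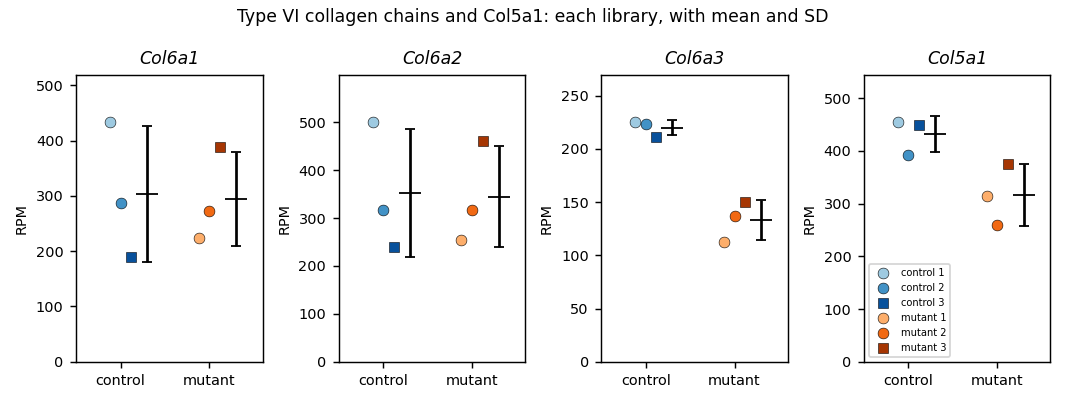
RPM of the 3 tested type VI genes and Col5a1 in each library (circles, litter 1; squares, litter 2), with group mean and SD (black, n = 3). Col6a3 separates into controls at 212 to 225 RPM and mutants at 113 to 150.1 RPM, while Col6a1 and Col6a2 overlap.

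The stretches just before the transcription starts of the type VI genes and Col5a1 are shown because Col6a1 and Col6a2 kept a near-constant ratio while Col6a3 did not follow them, and Col5a1 is the other tested collagen gene whose groups did not overlap. They are from RefSeq on GRCm38.p6, read on the gene's strand, and end before the outermost gene start in RefSeq and GENCODE. Capitals mark the GC box GGGCGG and the Smad1/5-type element GGCGCC, each searched on both strands; the motifs can overlap each other.
Col6a3, chr1:90844002-90844221, minus strand: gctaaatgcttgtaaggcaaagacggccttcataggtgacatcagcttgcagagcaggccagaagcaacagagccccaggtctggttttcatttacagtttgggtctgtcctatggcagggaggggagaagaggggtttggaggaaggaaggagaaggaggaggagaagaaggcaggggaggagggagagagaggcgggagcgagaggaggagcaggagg
Col6a1, chr10:76726169-76726294, minus strand: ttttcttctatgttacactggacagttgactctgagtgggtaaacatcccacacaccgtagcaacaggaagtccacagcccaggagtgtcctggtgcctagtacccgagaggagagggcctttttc
Col6a2, chr10:76623631-76623880, minus strand: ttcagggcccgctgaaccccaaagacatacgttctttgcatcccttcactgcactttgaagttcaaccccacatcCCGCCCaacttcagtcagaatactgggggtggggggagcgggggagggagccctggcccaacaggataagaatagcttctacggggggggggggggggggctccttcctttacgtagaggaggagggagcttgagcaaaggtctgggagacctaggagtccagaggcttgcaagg
Col5a1, chr2:27886175-27886380, plus strand: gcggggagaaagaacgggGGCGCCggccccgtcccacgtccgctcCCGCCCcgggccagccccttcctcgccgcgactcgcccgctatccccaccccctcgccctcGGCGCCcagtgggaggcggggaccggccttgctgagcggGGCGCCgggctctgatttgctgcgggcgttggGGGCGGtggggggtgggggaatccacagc
Col5a1 held 2 GC boxes and 3 GGCGCC elements in 206 bases of 77.7% G and C, Col6a2 held 1 GC box, and neither motif was found in the 220 bases shown for Col6a3 or the 126 bases for Col6a1. Among the 9764 tested genes with a RefSeq promoter, GGGCGG was in 60.2% and GGCGCC in 17.4% of windows of 250 bases. For the 29 tested collagen genes matched, the counts were 17 (58.6%) and 4 (13.8%), close to those shares. A match is a description of letters only, and its absence says nothing of any factor. Col6a1 and Col6a2 are neighbours on chromosome 10, with 85161 bases between them.

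Among fibrillar genes, Col5a1 was the one whose groups did not overlap. It encodes a chain of type V collagen, which is built into type I fibrils and limits their diameter. It was at 454, 393 and 449 RPM in the controls and 314, 259 and 376 RPM in mutants. The means were 432 ± 34.1 and 316 ± 58.1 RPM, a change of -0.46 (SE 0.19; limma, unadjusted p 0.0484, adjusted p 1.00), with -0.56 in litter 1 and -0.26 in litter 2. Across the alternatives its unadjusted p ran from 0.0205 to 0.195, and it was above 0.05 without any one of controls 1, 2 and 3 or mutants 1 and 2, under median-of-ratios scaling, with voom and with no filter on the mean level. With no filter, Col6a4 was under 0.05 in its place. Col5a2, which encodes the partner chain, was at 869.9, 859 and 1125 RPM in the controls and 984, 835 and 719 RPM in mutants, with overlap and a change of -0.17 (SE 0.25, unadjusted p 0.519). Col5a3, at 15.0 to 45.9 RPM in the controls and 22.7 to 32.1 RPM in mutants, also overlapped.

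The type I genes varied widely between libraries and in parallel. Col1a1 was at 15516, 21460.0 and 14403 RPM in the controls and at 28920.2, 16269.9 and 4871 RPM in mutants. Mutant 1 was the highest and mutant 3 the lowest of all libraries, so the controls lay inside the range of the mutants. The means were 17126.5 ± 3794 and 16687 ± 12030.1 RPM, with a change of -0.36 (SE 1.15, unadjusted p 0.767) that became 0.36 without mutant 3. Col1a2 was at 7861, 9457 and 7680.5 RPM in the controls and 13993, 9058 and 3089.8 RPM in mutants. Its means were 8333 ± 978 and 8713 ± 5460 RPM, with a change of -0.18 (SE 0.83, limma, unadjusted p 0.833) that became 0.44 without mutant 3. Per length, Col1a2 stood at 0.489 to 0.703 of Col1a1, highest in mutant 3, and the ratio did not separate the groups (exact permutation p = 0.4, adjusted over 6 ratios 0.8). In the type I trimer, α1 chains outnumber α2 chains.

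The order of the 6 libraries by Dspp level, from mutant 1 through control 2, mutant 2, control 1 and control 3 to mutant 3, was also their order by Col1a1, Col1a2 and Col11a2. Dspp encodes the precursor of the main non-collagenous dentin proteins. Its levels were 4032, 4844 and 817 RPM in the controls and 6872, 4642 and 113 RPM in mutants. Of all 14444 tested genes, 57 (0.395%) had this order, and the order was looked for after the values had been seen. The order by Phex matched 0 collagen genes, as did that by the enamel epithelium sum, and Dmp1, a further gene of the odontoblast list, was highest in control 3 (88.7 RPM) and lowest in control 1 (5.33 RPM). Col11a2 encodes a chain of the minor fibrillar type XI. It was at 713, 968 and 658 RPM in the controls and 1215, 832 and 97.6 RPM in mutants, and Col11a1, its partner, at 368, 416 and 467.5 RPM and 542, 353 and 169.9 RPM. Both were lowest in mutant 3 and highest in mutant 1. Col27a1, a fibrillar gene known from cartilage and tooth, was at 150.8, 170.1 and 49.7 RPM in the controls and 208, 131 and 24.8 RPM in mutants, low in both litter 2 libraries. Without mutant 3 the changes of Col11a1, Col11a2 and Col27a1 were above 0, at 0.075, 0.39 and 0.60. Col24a1, linked to bone-forming cells, was at 29.8, 55.6 and 64.5 RPM in the controls and 32.2, 39.3 and 13.4 RPM in mutants, a change of -0.86 (SE 0.44, unadjusted p 0.0893) that was -0.41 without mutant 3. The part of odontoblast content in these values was not tested.

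**Figure D3:**
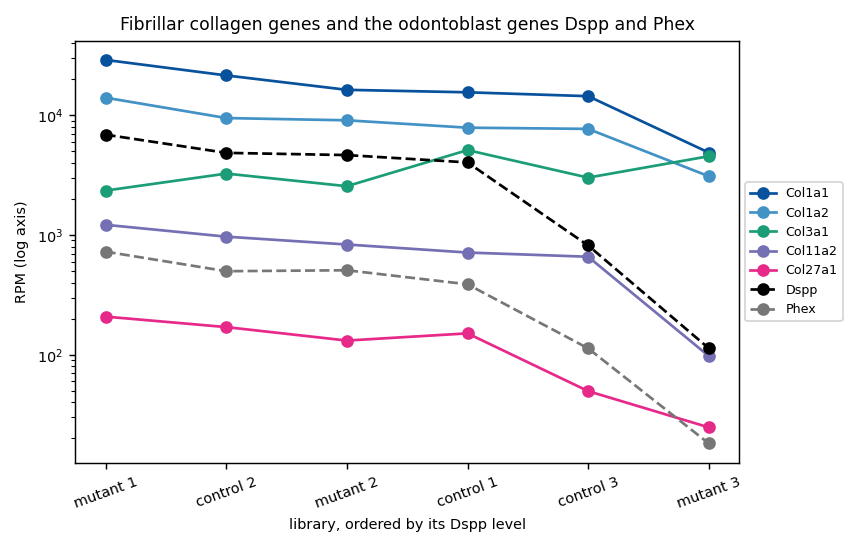
RPM on a log axis of 5 fibrillar collagen genes (solid lines) and the odontoblast genes Dspp and Phex (dashed) in the 6 libraries, ordered by Dspp level. Col1a1, Col1a2 and Col11a2 descend in the same order as Dspp, from mutant 1 to mutant 3, while Col3a1 does not.

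Col3a1, the chain of the type III collagen of soft connective tissue, took another course. It was at 5109, 3253 and 3010.0 RPM in the controls and 2346, 2552 and 4540.1 RPM in mutants, with control 1 and mutant 3 the highest, as for Col6a1 and Col6a2. Its means of 3791 ± 1148 and 3146 ± 1212 RPM differed by -0.29 (SE 0.50, unadjusted p 0.575), a value that ran from -0.59 to -0.058 with 1 library left out (-0.058 without control 1). The per-length ratio of Col3a1 to Col1a1 ran from 0.0864 in mutant 1 to 0.993 in mutant 3, a spread of 11.5-fold, and its groups overlapped (exact permutation p = 0.9). Col2a1, the main fibrillar gene of cartilage, was low throughout, at 31.8, 19.3 and 15.0 RPM in the controls and 8.49, 6.02 and 23.5 RPM in mutants. All 5 cartilage genes listed had a lower mean RPM in mutants, with Matn1 and Matn3 under the level for testing. The changes in litter 1 and litter 2 were -1.14 and 1.69 for Acan, -1.24 and 1.90 for Lect1 and -0.85 and 0.57 for Hapln1, so these genes, like Col2a1, were lower in the mutants of litter 1 and higher in that of litter 2. Their part in the Col2a1 value was not tested. The Col2a1 change was -0.90 (SE 0.48, unadjusted p 0.103), with -1.66 in litter 1 and 0.62 in litter 2, and was -0.53 without mutant 2 and -1.43 without mutant 3.

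Among basement membrane genes, Col4a1 and Col4a2 encode the chains of the widespread type IV network and lie head to head on chromosome 8. Their annotated first exons overlap by 22 bases, so a few reads cannot be assigned between them if counting ignored strand. Col4a1 was at 620.0, 441 and 571 RPM in the controls and 388, 458 and 569 RPM in mutants, and Col4a2 at 400.4, 298 and 372 RPM and 252, 291 and 403 RPM. The groups of both overlapped, with changes of -0.21 (SE 0.23, unadjusted p 0.398) and -0.20 (SE 0.23, unadjusted p 0.419). The per-length ratio of Col4a2 to Col4a1 stayed between 0.652 and 0.726 in all libraries and did not separate the groups (exact permutation p = 0.9). Col4a5 and Col4a6, neighbours on the X chromosome with starts facing apart, were both highest in control 2 (83.2 and 18.7 RPM) and lowest in control 3 (14.2 and 1.87 RPM). Mutants lay at 32.5 to 62.5 RPM for Col4a5 and 5.76 to 15.2 RPM for Col4a6. Col4a4, of the network best known from kidney, was at 4.65 RPM in mutant 1 and between 0.175 and 1.09 RPM elsewhere. Its change of 0.84 (unadjusted p 0.128) rests on that library, without which it fell under the level for testing. Col4a3, its head-to-head neighbour, was not tested and was likewise highest in mutant 1, at 0.817 RPM against 0.0699 to 0.247 RPM.

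The FACIT genes Col9a3 and Col22a1 held the changes of largest size below 0, followed by the fibrillar genes Col2a1 (-0.90) and Col24a1 (-0.86). None of them passed the test, and the Col9a3 and Col22a1 values depended on control 3, as given below. Col9a3, for a chain of the type IX that coats type II fibrils, was at 64.5, 116 and 245 RPM in the controls and 48.8, 36.2 and 108.7 RPM in mutants. The groups overlapped, and the change of -1.07 (SE 0.55, unadjusted p 0.0919) was -1.02 in litter 1 and -1.16 in litter 2. It was -0.57 without control 3, and with litter as a block its unadjusted p was 0.00332 (limma adjusted p 1.00). Col9a1 was at 21.4, 38.2 and 19.8 RPM and 10.7, 9.88 and 29.6 RPM, and Col9a2 at 510.1, 859.6 and 230.0 RPM and 284, 527 and 572 RPM. The 3 type IX genes thus differed in their lowest library, mutant 2 for Col9a1 and Col9a3 and control 3 for Col9a2. Col12a1, which associates with type I fibrils in ligament and periosteum, was at 482, 558 and 314 RPM in the controls and 384, 325 and 203 RPM in mutants, a change of -0.58 (SE 0.31, unadjusted p 0.106). It was lower in mutants in both litters, by -0.55 and -0.63, and was -0.31 without mutant 3. With litter as a block its unadjusted p was 0.00841 (limma adjusted p 1.00). Col14a1, the single FACIT gene above 0, was at 106, 34.2 and 103 RPM in the controls and 103, 71.1 and 195 RPM in mutants (0.64, SE 0.52, unadjusted p 0.258), a change that was 0.11 without control 2, 0.24 without mutant 3 and 0.96 without mutant 2. Col16a1 was at 378, 363 and 203 RPM and 197, 178 and 347 RPM, low in both litter 1 mutants and in control 3. Col22a1, known from tissue junctions such as that of muscle and tendon, was at 10.005, 11.8 and 108.5 RPM in the controls and 8.95, 8.92 and 19.9 RPM in mutants. Its change of -0.97 (SE 0.85, unadjusted p 0.293) rests on control 3, and was 0.10 without it. Of the 7 osteoblast genes, Ibsp, Spp1, Alpl and Mepe were highest in control 3, Sp7 in control 2, and Bglap and Bglap2 in mutant 1. Mepe was under the level for testing, at 0.424 RPM in control 3 and 0 elsewhere. The summed osteoblast level was 2064 RPM in control 2 and 1751 RPM in control 3. The tendon gene Tnmd (40.7 RPM) and the erythroid sum (1417 RPM) were also highest in control 3, whereas the tendon genes Scx and Mkx were highest in mutant 1 and control 1. The part of any of these genes in the Col22a1 value was not tested.

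Col17a1, the hemidesmosomal collagen of epithelia, and Col7a1, which forms anchoring fibrils beneath epithelia, had similar profiles. Col17a1 was at 229.7, 85.0 and 600.3 RPM in the controls and 353, 142 and 390.2 RPM in mutants. Col7a1 was at 157, 44.98 and 249.6 RPM in the controls and 171, 73.2 and 231 RPM in mutants. Both were highest in control 3 and lowest in control 2, and both had overlapping groups, with changes of 0.24 (SE 0.71) and 0.23 (SE 0.67). The summed level of the 7 enamel epithelium genes was 3562, 2143 and 36754 RPM in the controls and 47440, 4454 and 17083 RPM in mutants. It too was lowest in control 2 and was high in control 3, mutant 1 and mutant 3, the libraries that also ranked highest for Col17a1; its part in these values was not tested. Col18a1, a basement membrane collagen, was at 341 and 338 RPM in the litter 2 libraries and between 104.7 and 220.0 RPM in litter 1. The transmembrane genes Col23a1 and Col25a1 were highest in control 2 (559 and 105 RPM) and lowest in control 3 (147 and 11.6 RPM), as were Col4a5, Col4a6 and Col9a2, while mutants lay between, at 250.1 to 478 and 29.9 to 61.1 RPM. Col13a1 was at 5.47 to 13.1 RPM over all libraries. Of the others, Col8a1 (8.95 to 43.4 RPM) and Col8a2 (59.0 to 192 RPM), of the type VIII network, were each highest in mutant 3. Col15a1 (31.8 to 64.6 RPM) and Col28a1 (0.888 to 2.10 RPM) had overlapping groups.

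The collagen genes differed more between libraries than most genes. The highest library was a median of 3.77 times the lowest over the 36 tested members, from 1.57 for Col5a2 to 26.6 for Col4a4, and 35 of the 36 exceeded the median of 1.58 over all tested genes. Col4a4 lay near the floor, at 0.175 RPM in control 2, and reached the level for testing only through mutant 1. The next highest ratio was 12.5, for Col11a2. Among genes of at least 10 RPM the medians were 3.81 for 33 members and 1.48 for all. Control 1 was the highest library for 11 members and the lowest for 0, whereas mutant 2 was the highest for 0 and the lowest for 7. Control 3 and mutant 3, the litter 2 libraries, were each the lowest for 9 members, and were the highest for 7 and 5.

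**Figure D4:**
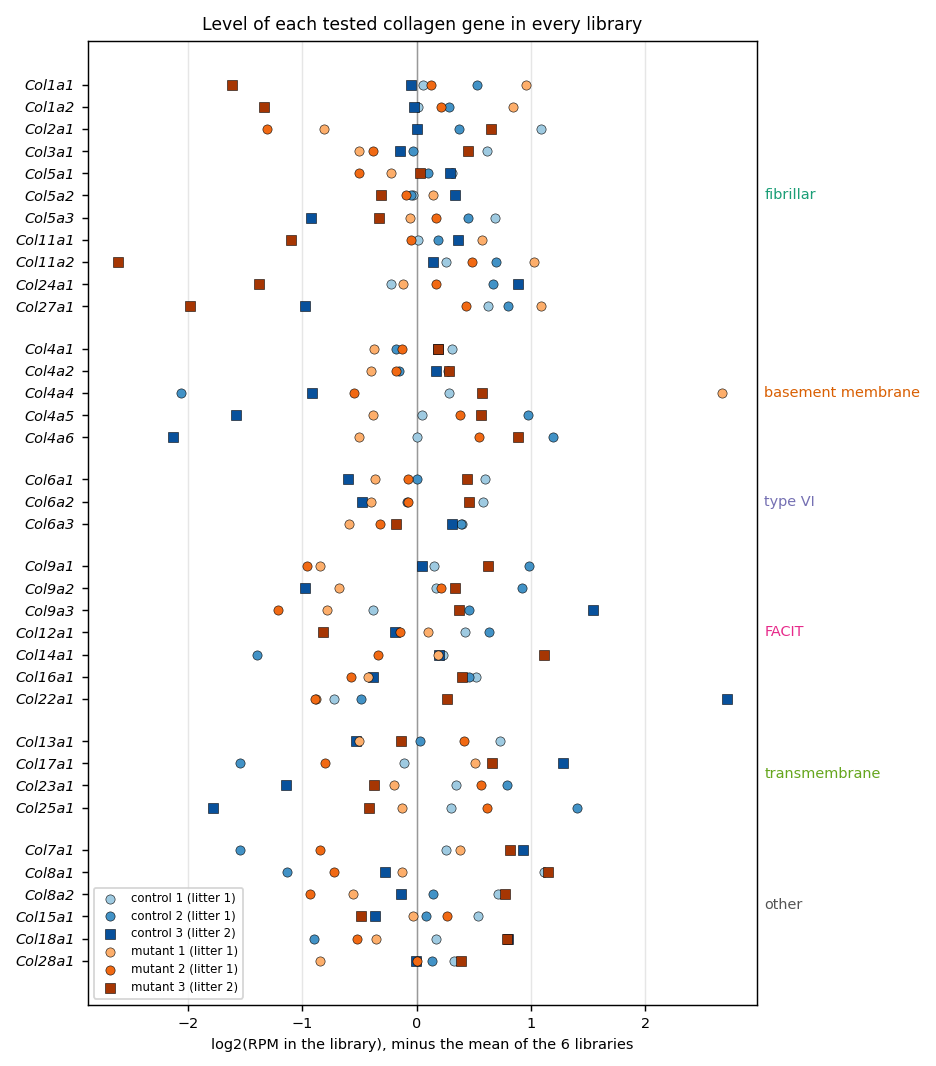
Level of the 36 tested collagen genes in each of the 6 libraries, as log2 RPM minus the mean of the 6 libraries (circles, litter 1; squares, litter 2; blue, control; orange, mutant), by collagen type. Mutant 3 is far below the other libraries for Col1a1 and Col11a2, control 3 is far above them for Col22a1, and the points spread least for Col5a2, Col4a1 and Col4a2.

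The genotype difference took opposite signs in the litters for 25 of the 36 tested members (69.4%), near the 63.5% of all tested genes. The median change was -0.38 in litter 1 and 0.19 in litter 2, beside -0.08 and 0.12 over all genes. A litter-by-genotype term, in which control 3 and mutant 3 are single libraries and the spread comes from the 4 libraries of litter 1 alone, gave 0 members with an adjusted p under 0.05 (limma, Benjamini-Hochberg), as for all genes (0%), and the smallest adjusted p among members was 0.501. Taken unadjusted, 15 members (41.7%) had p under 0.05, against 5.06% of all tested genes; such p-values take the litter 2 libraries to vary like those of litter 1. In 11 of these 15 the litter 2 change lay above that of litter 1, among them Col2a1, Col9a1, Col9a2, Col6a1, Col6a2, Col4a5 and Col4a6. In the other 4, Col11a1, Col11a2, Col22a1 and Col24a1, it lay below. For Col22a1, with the smallest of these unadjusted p-values (0.00045), the change was -0.25 in litter 1 and -2.39 in litter 2. The difference between litters turns on a single control and a single mutant library of litter 2, so litter, animal and dissection cannot be told apart. Col6a3 and Col5a1 were lower in mutants in both litters, with unadjusted p of 0.285 and 0.441 for the litter term.

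**Figure D5:**
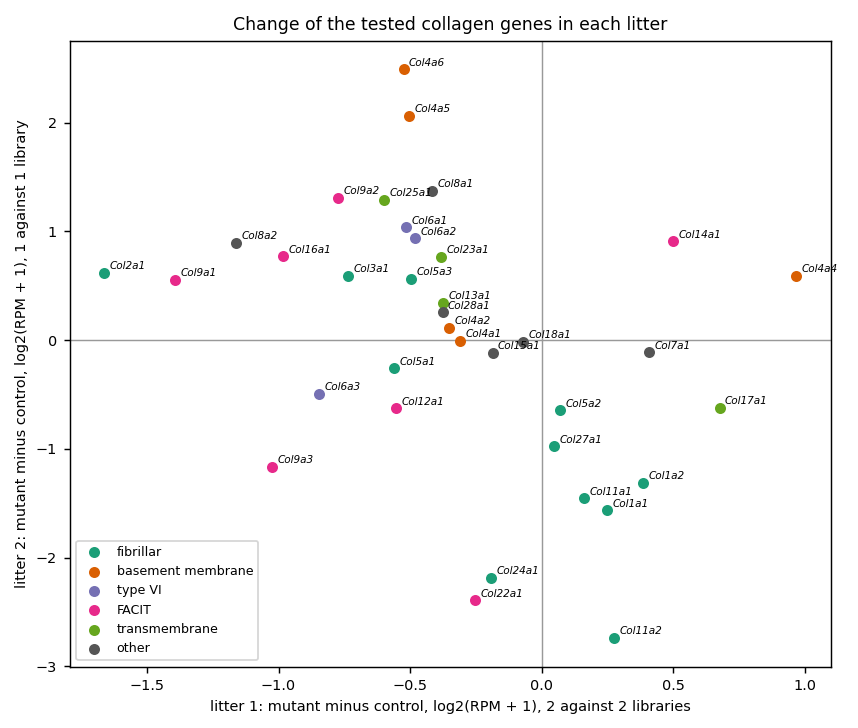
Mutant less control mean of log2(RPM + 1) for the 36 tested collagen genes, in litter 1 (x axis, 2 against 2 libraries) and litter 2 (y axis, 1 against 1 library), coloured by type. Type I and type XI genes lie at the lower right, higher in litter 1 mutants and lower in the litter 2 mutant, and Col6a3, Col9a3, Col12a1 and Col5a1 lie at the lower left, lower in both.

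Genes that make, process or bind collagens were read from a list of 38 found in the table, all of which were tested. By limma with Benjamini-Hochberg adjustment 0 passed. At an unadjusted p under 0.05, 1 was lower and 1 higher (5.26% of the list, against 1.05% of all genes). The median change of the 38 was -0.17, beside -0.01 over all genes, and 32 (84.2%) were lower in mutants, beside 54.4% of all genes. The groups did not overlap for 3 (7.89%, against 2.64% of all genes), with Lepre1 and Glt25d1 lower and Itga2 higher in mutants. P4ha3, for a subunit of the prolyl hydroxylase that stabilises the triple helix, was at 3.06, 6.26 and 13.3 RPM in the controls and 2.81, 1.73 and 3.44 RPM in mutants, with slight overlap and a change of -1.06 (SE 0.45, unadjusted p 0.0495). That p was under 0.05 in 4 of 14 alternatives, and the change was -0.60 (unadjusted p 0.124) without control 3. Lepre1, for a prolyl 3-hydroxylase of collagen, was at 137, 169 and 179 RPM and 135, 125 and 118 RPM, with no overlap and with a difference of -0.35 (SE 0.15, unadjusted p 0.0531). Itga10, for a collagen-binding integrin chain, was at 19.5 to 33.1 RPM in the controls and 20.8, 26.8 and 4.86 RPM in mutants (-0.86, SE 0.56), low in mutant 3 and at -0.17 without it. Itga2, for another collagen-binding integrin chain that epithelia also express, was at 17.8, 7.73 and 15.9 RPM in the controls and 35.9, 18.2 and 24.0 RPM in mutants. All mutants were above all controls, by 0.89 (SE 0.35, unadjusted p 0.0382), and by 0.55 (unadjusted p 0.0966) without control 2. The unadjusted p was also above 0.05 without mutant 1 or mutant 3, in litter 1 alone and under median-of-ratios scaling. Of the 7 enamel epithelium genes 6 had a higher mean RPM in mutants, and their sum, like Itga2, was highest in mutant 1 and lowest in control 2. Their part in the Itga2 value was not tested. Tll1, for a protease that trims procollagen (0.46, SE 0.38), and Glt25d2, for a collagen galactosyltransferase (0.28, SE 0.28), were the next higher in mutants by p, with overlap.

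Lox, which encodes the enzyme that starts collagen cross-linking, was at 275, 334 and 159 RPM in the controls and 451, 364 and 58.5 RPM in mutants. Mutant 1 was the highest and mutant 3 the lowest, as for Col1a1, and the change of -0.19 (SE 0.74, unadjusted p 0.801) was 0.42 in litter 1 and -1.42 in litter 2. Serpinh1, for the collagen chaperone HSP47, was at 1266, 1298 and 1856 RPM in the controls and 1215, 1123 and 1416 RPM in mutants, with overlap and a change of -0.22 (SE 0.30, unadjusted p 0.481) that was -0.042 without control 3. The per-length ratio of Col5a2 to Col5a1 was 2.43 to 3.18 in controls and 2.43 to 4.09 in mutants (exact permutation p = 0.4; adjusted over 6 ratios 0.8), and that of Col6a2 to Col6a1 did not separate the groups (exact permutation p = 0.9).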

How the data were processed

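RNA selected for poly(A) was read on a NextSeq 500, per the labels' protocols. TopHat2 and build mm10 are named in the submitters' processing notes; the counting program and annotation are not given in the sources used here. The authors deposited log2 values under a title that calls them normalized RPKM. Raised as powers of 2, 99.97% to 100.0% of the values per library above the column minimum lay within 0.1 read of whole multiples of a step shared by all genes, so length had not been divided out. Values were therefore treated as log2 RPM, the denominator being inferred, and the column minimum (0.9 of 1 read) as 0. This unit differs from the table's title, and lengths came from GENCODE M21 transcripts (APPRIS principal), for 43 of 43 members, in place of RefSeq. RefSeq promoters matched 35.

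Testing used log2(RPM + 1) of genes whose mean reached 1 RPM, in limma 3.58.1 under R 4.3.3 (lmFit, eBayes with trend, no covariate, two-sided, Benjamini-Hochberg over 14444 genes). The code was first run on simulated data with a single spread for all genes and no litter effect. That run does not measure power or calibration in these data. Chain ratios used exact permutation tests over samples. Members were all accounted for; values per library were required for Col1a1, Col1a2, Col3a1, Col6a1 to Col6a3, genes with an unadjusted p under 0.05 or separate groups, and the highest member per type; other members given per library were chosen after their values were seen. From the list of collagen-making genes the 3 smallest p-values per direction, Lox and Serpinh1 were named. Members, gene lists and markers were chosen with earlier results of these data known. Alternatives were a pseudocount of 0.1, no filter or a minimum mean of 5 RPM, median-of-ratios scaling, litter or replicate number as a block, litter 1 alone, limma voom on recovered reads and leaving out each library. Figures used matplotlib 3.10.9.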

Additional observations from a re-analysis of the deposited data

How the results depend on the processing

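The alternatives were fixed with earlier results of these data known. In none of the 14 did a collagen gene pass limma with Benjamini-Hochberg adjustment. The count without adjustment, 2 in the report, was 1 under median-of-ratios scaling, 1 with limma voom, 4 with litter as a block (Col5a1, Col6a3, Col9a3, Col12a1) and 9 in litter 1 alone, all lower in mutants; among all genes it went from 152 of 14444 to 157, 148, 292 and 316; the cause was not tested. With each library left out in turn it ran from 1 to 6: 6 without mutant 3, 3 without control 1, control 3 or mutant 2, and 1 without control 2 or mutant 1, beside 68 to 319 among all genes. The median change of the tested members kept its sign in all 14, from -0.39 to -0.083. Col6a3 was under an unadjusted p of 0.05 in every fit named here. Replicate numbers come from column names, and deviations from the group means correlated at -0.03, 0.75 and 0.50 in the pairs numbered 1, 2 and 3, across genes, so they were not taken to pair the samples. A replicate block on these numbers gave a count of 6, with 4 lower (Col5a1, Col6a3, Col9a3, Col12a1) and 2 higher (Col4a4, Col14a1) in mutants, beside 524 of all 14444 genes. Col4a4 reached the level for testing only through mutant 1, so its direction is no support.

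Signs turned in these cases. In litter 1 alone the changes were Col1a1 0.25, Col1a2 0.38, Col6a1 -0.51, Col11a1 0.16, Col11a2 0.28, Col25a1 -0.60, Col27a1 0.046, Col4a5 -0.50, Col4a6 -0.53, Col5a2 0.069, Col8a1 -0.42, Glt25d2 -0.00047 and Lox 0.42. Col23a1, at -0.00032, was 0.00028 with a pseudocount of 0.1. Under median-of-ratios scaling Col6a2 was 0.0071 and Col23a1 was 0.015, and with voom Col6a2 was 0.0099 and Col23a1 was 0.0033. In litter 1 alone the log2 group difference was -0.041 for the ratio of Col4a2 to Col4a1, 0.034 for the ratio of Col6a2 to Col6a1 and -0.99 for the ratio of Col3a1 to Col1a1. Leaving out a library turned the sign of 22 gene changes, whose ranges were -0.92 to 0.36 for Col1a1, -0.65 to 0.44 for Col1a2, -0.30 to 0.30 for Col6a1, -0.25 to 0.28 for Col6a2, -0.59 to 0.36 for Col9a2, -0.57 to 0.39 for Col23a1, -0.51 to 0.33 for Col18a1, -0.76 to 0.075 for Col11a1, -1.43 to 0.39 for Col11a2, -0.40 to 0.16 for Col13a1, -0.38 to 0.058 for Col15a1, -0.46 to 0.94 for Col17a1, -1.55 to 0.10 for Col22a1, -0.81 to 0.72 for Col25a1, -0.91 to 0.60 for Col27a1, -0.33 to 0.030 for Col28a1, -0.32 to 0.92 for Col4a5, -0.26 to 1.13 for Col4a6, -0.62 to 0.16 for Col5a3, -0.47 to 0.75 for Col7a1, -0.32 to 0.76 for Col8a1 and -0.73 to 0.73 for Lox, and of 3 ratio differences, -0.035 to 0.043 for the ratio of Col4a2 to Col4a1, -0.058 to 0.047 for the ratio of Col6a2 to Col6a1 and -0.95 to 0.81 for the ratio of Col3a1 to Col1a1. Beside those given in the report, changes that kept their sign but moved by over 1.5 times included -0.35 to -0.076 for Col4a1, -0.39 to -0.047 for Col4a2, -0.28 to -0.042 for Col5a2, 0.12 to 0.75 for Tll1 and 0.097 to 0.52 for Glt25d2. The cause was not tested. The 7 members under 1 RPM were all fitted where no filter was set. Of them Col19a1 was also fitted in litter 1 alone and without control 3, where 37 members were tested.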
